A study of Mus musculus with 22 samples.

Results

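The genes described here are 7 genes of neurotrophin signalling, namely the ligands Bdnf and Ntf3, the receptors Ntrk2, Ntrk3, Ngfr and Sort1, and Vgf, a neuropeptide precursor induced by BDNF. They were chosen by name from the 24421 genes of the count tables, and all 7 passed the filter on low counts in males and in females. The libraries came from the right brain hemispheres of 22 mice of one inbred strain. The sample labels spell its name C57B6/J OlaHsd, and the paper spells it differently. The libraries fell into 4 groups, 7 dominant males, 7 submissive males, 4 dominant females and 4 submissive females. No treatment is named for any group. The mice were housed by 4 and were 10 to 12 weeks old when the tube test set their rank. In that test a mouse meets a cage mate in a narrow tube and pushes it out or retreats. A dominant and a submissive mouse came from each of 11 cages, and the library names give the same cage to libraries of the same replicate number, so cages are called here by that number, 1 to 7 in males and 1 to 4 in females. Female cages 3 and 4 carry the labels Gr1 and Gr2 in place of a cage number. Intermediate females were regrouped and retested in the study, and which sequenced mice came from such groups is not given in the sources used here. Males and females were counted in separate tables and carry different library name series, so that sex and library series cannot be told apart, and a difference between them is called a difference between the tables.

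Neurotrophins are secreted growth factors that support the survival of neurons and the strength of their synapses. Bdnf is transcribed from several start sites, and its protein binds the receptor tyrosine kinase TrkB, the product of Ntrk2. NT-3, the product of Ntf3, binds TrkC, the product of Ntrk3. The unprocessed precursors of these ligands bind the p75 receptor, encoded by Ngfr, together with sortilin, encoded by Sort1, which also sorts BDNF into secretory vesicles. Vgf is stored in dense-core vesicles and is known in cortex and hippocampus as a gene that neuronal activity and BDNF switch on. Ntrk2 and Ntrk3 each give full-length receptors and truncated forms without the kinase, and Ntrk2 is found in neurons and, as the truncated form, in astrocytes. The counts are sums over all forms of a gene.

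In mm10 coordinates Bdnf (ENSMUSG00000048482) lies at chr2:109674700-109727043 on the plus strand and Ntf3 (ENSMUSG00000049107) at chr6:126101412-126166744 on the minus strand. Ntrk2 (ENSMUSG00000055254) lies at chr13:58806569-59133970 on the plus strand and Ntrk3 (ENSMUSG00000059146) at chr7:78192114-78577838 on the minus strand. Ngfr (ENSMUSG00000000120) lies at chr11:95568821-95587698 on the minus strand, Sort1 (ENSMUSG00000068747) at chr3:108284064-108361519 on the plus strand and Vgf (ENSMUSG00000037428) at chr5:137030295-137033351 on the plus strand. The counted exons covered 14037 bases in Ntrk2 and 1548 bases in Ntf3, the longest and the shortest of the 7. In the GENCODE annotation 896 exon bases of Bdnf overlap the opposite-strand gene Gm45346 and 356 exon bases of Sort1 overlap the opposite-strand gene Gm12523. The strand setting of the counting is not given in the sources used here, so reads of these partners may be included in both genes.

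The start regions of Bdnf are shown because one gene count adds up transcripts from all of them, and activity-dependent transcription of Bdnf is known to run through CREB, which binds the letters TGACGTCA (the CRE) and, more weakly, the shorter TGACG (the short site). RefSeq (GRCm38.p6) gave 7 start regions for Bdnf, 2 for Ntf3 and 1 each for Ntrk2 and Ngfr, each from 250 bases before to 50 bases after a start. Ntrk3, Sort1 and Vgf had no entry. The full CRE was in 0 of these 11 regions and in 1.79% of 32851 mouse start regions searched on both strands. The short site was in 1 of the 11 regions, the third of Bdnf, and in 20.8% of all regions. The most upstream start region of Bdnf (chr2:109674450-109674749, plus strand) and the third (chr2:109692186-109692485, plus strand), with the short site in capitals as CGTCA, the reverse complement of TGACG, read 5′ to 3′ as follows.
Bdnf start 1: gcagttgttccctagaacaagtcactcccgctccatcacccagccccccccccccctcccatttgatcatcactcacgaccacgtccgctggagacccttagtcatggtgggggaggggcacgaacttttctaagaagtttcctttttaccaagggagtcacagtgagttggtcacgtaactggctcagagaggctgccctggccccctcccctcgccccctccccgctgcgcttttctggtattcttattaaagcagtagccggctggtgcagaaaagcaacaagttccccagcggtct
Bdnf start 3: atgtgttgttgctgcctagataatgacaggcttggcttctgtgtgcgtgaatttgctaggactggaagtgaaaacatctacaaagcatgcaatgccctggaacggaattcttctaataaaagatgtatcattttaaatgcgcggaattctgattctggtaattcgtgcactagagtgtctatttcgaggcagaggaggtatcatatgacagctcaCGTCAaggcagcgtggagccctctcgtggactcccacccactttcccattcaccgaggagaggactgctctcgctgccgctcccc
A match of letters is a description of the sequence, and the data do not separate transcripts by start.

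Between 12403943 and 16488762 reads per library were counted on genes. Females had 14967458 counted reads or more and males 15805170 or fewer, so depth moved with the table, and its part in the differences between the tables was not tested. Ddx3y, a gene of the Y chromosome, was at 146 to 177 CPM in the 14 males and at 0 counts in the 8 females (CPM, counts relative to the TMM-scaled library size, scaled over all 22 libraries). Snap25, a synaptic protein of neurons, was at 1340 to 1630 CPM in males and 1830 to 2020 CPM in females, so neurons were represented in every library. Dominant male 1 had 0 counts of Pcp2, a marker of cerebellar Purkinje cells, and a summed level of 5 cerebellar granule cell markers of 23.4 CPM, against a median of 433.7 CPM in males. In bulk tissue, fewer cells of a type and less RNA per cell cannot be told apart.

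Per kilobase of counted exon, Sort1 and Ntrk2 were the most abundant of the 7 genes and Ngfr the least. Levels were compared between genes on this scale, which depends on the exon length used. In mean CPM without that division Ntrk2 (695.5) was above Sort1 (540.7) and Ngfr (3.22) above Ntf3 (2.23). Over 22 libraries Sort1 was at 78.0 ± 2.68 CPM per kb (mean ± SD, n = 22), Ntrk2 at 49.6 ± 3.38, Ntrk3 at 25.6 ± 3.34 and Vgf at 14.9 ± 2.75. Bdnf was at 6.34 ± 0.553 CPM per kb, Ntf3 at 1.44 ± 0.271 and Ngfr at 0.944 ± 0.130. This order was the same in all 22 libraries, and the ranges of neighbours did not overlap except those of Ntf3 and Ngfr. The ligand Bdnf was counted 4.53 ± 0.824 times as highly as the ligand Ntf3 per exon length (mean and SD of the ratio within a library). The receptor Ntrk2 was at 1.95 ± 0.153 times the level of Ntrk3. Ntf3 and Ngfr rested on few reads, with 21 to 48 counts of Ntf3 and 37 to 59 of Ngfr in a library.

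The members differed in how much they varied between mice. Vgf had a wider relative spread than Bdnf, Ntrk2, Ntrk3 and Sort1 in both male groups. In dominant males it ranged from 22.1 to 45.6 CPM, a coefficient of variation of 24.5% where counting error alone gives 4.51%. In submissive males the value was 15.2% against 4.39%. The variation of Ntf3 in dominant males, 20.1%, was close to its counting error of 18.3%, and that of Ngfr, 12.1%, was below its counting error of 14.2%. Sort1 varied by 3.31% in dominant males and 0.943% in submissive females, where counting error gives 1.09%.

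**Figure D1:**
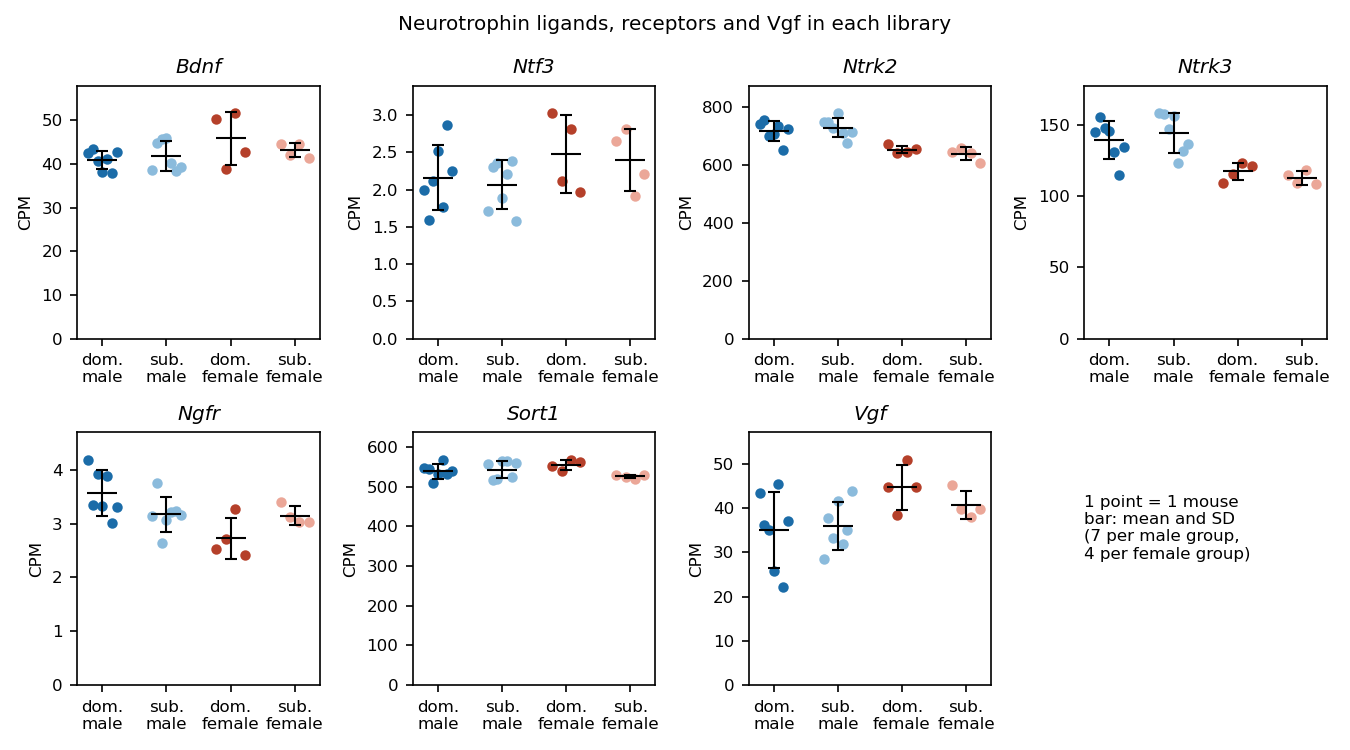
Level of each of the 7 genes in CPM (vertical axis, from 0) in the 4 groups (horizontal axis). Each point is one library and the bars are the mean and SD. Vgf spreads widely in dominant males, from 22.1 to 45.6 CPM, and in Ntrk3 12 of 14 males lie above the highest female.

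The first question was whether dominant and submissive mice of one sex differ in these genes. None of the 7 genes was called between ranks in males, by edgeR's quasi-likelihood test with a Benjamini-Hochberg adjusted p under 0.05, where 0% of the 14737 genes tested were called. At an unadjusted p under 0.05 the test gave 0 of the 7 genes and 1.32% of all genes. In females 0 of the 7 genes were called, against 0.0942% of 14865 genes, and 1 of the 7 had an unadjusted p under 0.05, against 10.5% of all genes. DESeq2 also called 0 of the 7 in each sex.

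Among the ligands, Bdnf was at 42.5, 43.3, 40.6, 38.2, 41.2, 38.0 and 42.7 CPM in dominant males 1 to 7. In submissive males 1 to 7 it was at 38.7, 44.8, 45.7, 46.0, 40.1, 38.4 and 39.3 CPM. The ranks overlapped, and within cages the dominant mouse was higher in 3 cages and lower in 4. The log2 difference, dominant minus submissive, was -0.032 ± 0.054 (standard error, adjusted p = 1.00, edgeR). In dominant females 1 to 4 Bdnf was at 50.2, 38.8, 51.7 and 42.8 CPM and in submissive females 1 to 4 at 44.7, 42.1, 44.7 and 41.4 CPM. The highest values, of dominant females 1 and 3, lay above all other females, while dominant female 2 was the lowest. The log2 difference in females was 0.078 ± 0.069 (adjusted p = 0.757, edgeR), with the dominant mouse higher in 3 of 4 cages. It was 0.030 without dominant female 1, 0.15 without dominant female 2 and 0.018 without dominant female 3. Ntf3 ranged from 1.58 to 2.86 CPM in males and from 1.91 to 3.03 CPM in females. Its log2 difference between ranks was 0.063 ± 0.145 in males and 0.040 ± 0.183 in females, in both within 1 standard error of 0.

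Among the receptors, Sort1 in females was the one member whose ranks did not overlap, and in males none did, where 0.00679% of all genes had ranks without overlap. Dominant females 1 to 4 had 552.2, 539.9, 568.3 and 562.0 CPM and submissive females 1 to 4 had 530.2, 524.7, 519.1 and 528.6 CPM. The dominant mouse was higher in 4 of 4 cages, by 0.041 to 0.131 on the log2 scale. Ranks that do not overlap were found for 5.46% of the 14865 genes tested in females. The log2 difference of Sort1 was 0.073 ± 0.028 (unadjusted p = 0.0162, adjusted p = 0.344, edgeR). After each library's trend of counts on exon length had been taken out (the exon length correction) it was 0.033 ± 0.027 (adjusted p = 0.827, edgeR). A two-sided exact paired permutation test over the 4 cages gave p = 0.125, the smallest value that 4 pairs allow. Without the pairing the exact permutation p was 0.0286, which any gene whose ranks do not overlap has in this design. The adjusted p of Sort1 was between 0.195 and 0.857 over the alternatives, so the difference failed the correction under each of them. Markers of cortical excitatory neurons stood alongside it, with 6 of 6 higher in dominant females, of which 0 were called by edgeR and 4 had an unadjusted p under 0.05, and summed levels of 662.5 to 762.5 CPM against 637.3 to 675.2 CPM. Hippocampal neuron markers were higher in 4 of 5, with 2 at an unadjusted p under 0.05, at 106.2 to 111.4 CPM against 99.4 to 104.1 CPM, and striatal neuron markers in 5 of 5, with 0, at 344.1 to 373.2 CPM against 314.7 to 367.7 CPM. Choroid plexus markers were lower in 4 of 4, with 4 at an unadjusted p under 0.05, at 691.4 to 846.9 CPM against 661.9 to 998.9 CPM. Markers of hypothalamic peptide neurons were lower in 5 of 5, with 2, at 23.1 to 50.5 CPM against 44.8 to 51.6 CPM. Of 4 blood markers Alas2, an enzyme of heme synthesis in red cell precursors, was the one tested and was higher, at 3.86 to 5.99 CPM against 2.56 to 3.78 CPM (unadjusted p = 0.00073, adjusted p = 0.149, edgeR), while the globin genes Hba-a1, Hbb-bs and Hbb-bt, whose exons are shared with copies in the tables, were at 0 counts in all females. By edgeR with its filter none of the markers of these 6 lists was called. DESeq2 called Rorb, a cortical excitatory marker, higher, against 1.49% of all genes. Without the filter the markers called by edgeR included Rorb and Alas2, higher, and Kl, a choroid plexus marker, lower, against 0.424% of all genes. The part of these markers in the Sort1 values was not tested. In males Sort1 ranged from 509.1 to 567.3 CPM in dominant and from 516.2 to 563.6 CPM in submissive mice, a log2 difference of -0.014 ± 0.034 (adjusted p = 1.00, edgeR).

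Ngfr, the p75 receptor, had 3.00 to 4.19 CPM in dominant males and 2.65 to 3.76 CPM in submissive males, a log2 difference of 0.17 ± 0.10 with 5 of 7 dominant mice higher. In females it had 2.42 to 3.28 CPM in dominant and 3.03 to 3.403 CPM in submissive mice, a log2 difference of -0.21 ± 0.15 with 1 of 4 dominant mice higher. The difference between these differences, the interaction of rank and table, was -0.37 ± 0.16 on the log2 scale (unadjusted p = 0.0451, adjusted p = 0.999, edgeR). With 37 to 59 counts behind each value, the spread of Ngfr was within counting error. None of the 7 interactions was called, against 0% of 15233 genes, and 3.32% of all genes had an unadjusted p under 0.05.

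Ntrk2 had 653.3 to 757.0 CPM in dominant and 677.3 to 780.3 CPM in submissive males, and its log2 difference was -0.026 ± 0.039. In females the ranges were 642.1 to 673.3 and 607.6 to 660.8 CPM, and the difference was 0.027 ± 0.030. These signs turned with the exon length correction, to 0.021 in males and -0.047 in females. Ntrk3 had 115.3 to 155.8 CPM in dominant and 123.1 to 158.5 CPM in submissive males, a log2 difference of -0.052 ± 0.068 with 2 of 7 dominant mice higher. In females the ranges were 109.6 to 123.3 and 108.5 to 118.2 CPM, and the difference was 0.051 ± 0.041. All of these ranges overlapped.

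Vgf differed within male cages in both directions. In cages 1 and 5 the dominant mouse had 43.5 and 45.6 CPM and its submissive cage mate 28.5 and 31.9 CPM. In cages 4 and 6 the order was opposite, with 25.7 and 22.1 CPM in the dominant and 41.6 and 35.1 CPM in the submissive mouse. The other three cages, 2, 3 and 7, had 36.2, 35.2 and 37.2 CPM in the dominant and 37.8, 33.2 and 44.0 CPM in the submissive mouse. Dominant male 1, of cage 1, is the library with 0 counts of Pcp2, and it also had the highest Ngfr value, 4.19 CPM. The part of its tissue content in these values was not tested. The log2 differences within cages ran from -0.69 to 0.61 with a mean of -0.066 and an SD of 0.516, and a two-sided exact paired permutation test gave p = 0.688. In females dominant mice 1 to 4 had 44.8, 38.4, 51.0 and 44.7 CPM and submissive mice 1 to 4 had 45.2, 39.9, 38.0 and 39.8 CPM. Dominant female 3 stood highest, and the log2 difference was 0.13 ± 0.07 (unadjusted p = 0.0799, adjusted p = 0.554, edgeR) with 2 of 4 dominant mice higher. It was 0.059 without dominant female 3 and 0.19 without dominant female 2.

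**Figure D2:**
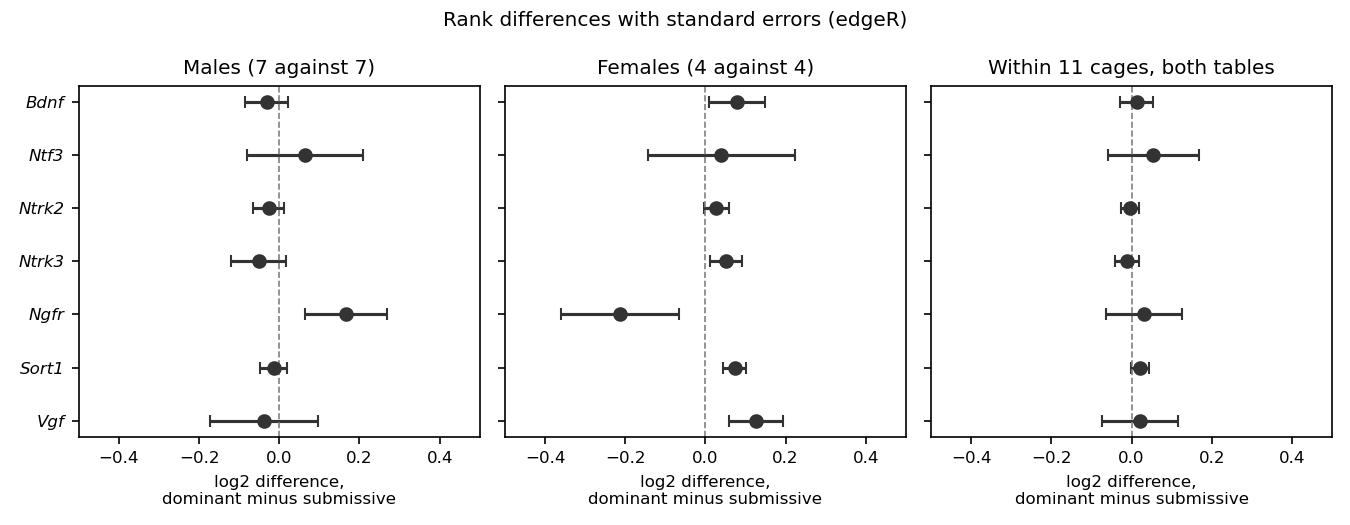
Log2 difference between dominant and submissive mice (horizontal axis, points, with standard errors as bars) for the 7 genes in males, in females and within the 11 cages of both tables. The dashed line marks no difference, and 0 of the 7 genes were called in any panel.

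When rank was tested within all 11 cages at once, 0 of the 7 genes were called by edgeR, against 0% of 15233 genes, and 0 of 7 had an unadjusted p under 0.05, against 2.78% of all genes. DESeq2 called 0 of the 7 as well. The log2 differences were between -0.012 for Ntrk3 and 0.055 for Ntf3. Standard errors were smallest for Sort1 and Ntrk2, at 0.022 for each, and largest for Ntf3, at 0.114.

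The other genes of the pathway were read from 8 lists with 78 genes, of which 77 were tested. They include enzymes that process the precursors, sortilin relatives, p75 partners, Trk adaptors, transcription factors of Bdnf, genes that respond to activity or BDNF, and granins with other dense-core vesicle proteins. In males 0 of 77 were called between ranks, with 2 at an unadjusted p under 0.05, where 1.32% of all genes had one. Among genes with higher values in dominant males the smallest p belonged to Tac1, the substance P precursor (log2 difference 0.10 ± 0.05, adjusted p = 1.00, edgeR). In females 0 of 77 were called by edgeR, with 22 at an unadjusted p under 0.05, where 10.5% of all genes had one, and their median log2 difference was 0.030, against -0.0020 over all genes. Crebbp, a coactivator of CREB, was at 0.21 ± 0.05 (adjusted p = 0.0867, edgeR, and between 0.0152 and 0.295 over 8 alternatives, under 0.05 in 4 of them). Bex1, which binds p75, was at -0.19 ± 0.05 (adjusted p = 0.162, edgeR). With the replicate block 3 of 77 were called, where 0.242% of all genes were called. They were Crebbp (0.21, adjusted p = 0.0395), Egr1 (0.41, adjusted p = 0.0367) and Pcsk1n, an inhibitor of a prohormone protease (-0.26, adjusted p = 0.00759). With the block and the exon length correction together, 0 of 12 transcription factors of Bdnf and 0 of 17 activity genes were called, so that the calls of Crebbp and Egr1 were lost, and 1 of 8 granins and dense-core proteins was called, against 0.0538% of all genes. With the block and a like correction for GC content (the GC correction), 1 gene of each of these 3 lists was called, against 0.309% of all genes. Without the block, edgeR with no filter on low counts called Crebbp, Egr1 and Pcsk1n (adjusted p = 0.0152, 0.0225 and 0.0204), against 0.424% of all genes, and DESeq2 called Crebbp (adjusted p = 0.0165), against 1.49%.

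Genes that respond to activity and transcription factors of Bdnf had mostly positive differences within cages, without a call. Over the 11 cages 15 of 17 activity genes had higher values in dominant mice, 7 of the 17 had an unadjusted p under 0.05, where 2.78% of all genes had one, 0 were called, and the median log2 difference was 0.071, against 0.0018 over all genes. Arc, an immediate early gene whose protein acts at synapses, was at 0.28 ± 0.07 (unadjusted p = 0.00123, adjusted p = 1.00, edgeR). Of the transcription factors 12 of 12 had higher values in dominant mice, with 1 at an unadjusted p under 0.05, 0 called and a median of 0.036. In females alone 14 of the 17 activity genes had higher values, with 0 called by edgeR without and 1 with the replicate number as a block (Egr1, an immediate early transcription factor), a call lost when the exon length correction was added to the block. With the GC correction added in its place, and without the block where no filter was used, Egr1 was called as well. Within the 11 cages of both tables Furin, a protease that cleaves proneurotrophins, had the smallest p among pathway genes lower in dominant mice, at -0.10 ± 0.04 (adjusted p = 1.00, edgeR).

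The difference between the tables was larger than that between ranks for several members. Of the 7 genes 3 were called in females against males, Ntrk3 and Ntrk2 lower and Vgf higher, where 36.2% of 15233 genes were called, 18.4% higher and 17.8% lower. At an unadjusted p under 0.05 there were 5 of the 7, against 44.9% of all genes. The count for the 7 genes is therefore near that of all genes. The fits between the tables held no term for cage, so cage mates counted as independent libraries. Their standard errors and p-values may therefore be too small. The ranges of the tables overlapped for all 7, while 6.11% of all genes had tables that did not overlap.

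Ntrk3 was lower in the female table. It had 109.6, 115.7, 123.3 and 121.2 CPM in dominant females 1 to 4 and 115.3, 109.2, 118.2 and 108.5 CPM in submissive females 1 to 4. Males had 115.3 to 158.5 CPM with a median of 145.6, and 12 of 14 males lay above the highest female. The log2 difference, female minus male, was -0.30 ± 0.05 (adjusted p = 3.18e-05, edgeR), and it stayed called under all 7 alternatives and in all 22 fits without one library. None of these fits held a term for cage. It was -0.40 against male cages 1 to 4 only and -0.16 against male cages 5 to 7 only (adjusted p = 6.47e-10 and 0.00279, edgeR, comparisons chosen after seeing earlier results).

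Ntrk2 had 607.6 to 673.3 CPM with a median of 646.3 in females and 653.3 to 780.3 CPM with a median of 725.9 in males, of which 13 of 14 lay above the highest female. The log2 difference was -0.16 ± 0.03 (adjusted p = 5.85e-05, edgeR), and 0.038 ± 0.036 (adjusted p = 0.434) with the exon length correction, so its direction turned with that correction. Ntrk2 has the longest counted exons of the 7. Markers of astrocytes were lower in females in 4 of 5 genes, with 2 called lower by edgeR with and without that correction and a median log2 difference of -0.096 without it. Their summed level was 1585 to 1803 CPM in females and 1553 to 1946 CPM in males, none was at 0, and their part in the Ntrk2 values was not tested. Sort1 was at 540.6 ± 18.2 CPM in females and 540.7 ± 19.4 CPM in males (SD, n = 8 and 14), a log2 difference of -0.00089 ± 0.024 (adjusted p = 0.981, edgeR). After the same correction it was 0.087 (adjusted p = 0.0412).

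Vgf had a median of 42.3 CPM in females, from 38.0 to 51.0, and of 35.7 CPM in males, from 22.1 to 45.6, with 10 of 14 males below the lowest female. The log2 difference was 0.26 ± 0.10 (adjusted p = 0.0356, edgeR). The call was lost with DESeq2 (adjusted p = 0.0653), after the exon length correction (0.0514) or the GC correction (0.232, with a log2 difference of 0.13), and against male cages 5 to 7 only (0.103). It was also lost without each of 12 libraries, with adjusted p from 0.0534 to 0.103. These were dominant males 3 and 4, submissive males 1, 3, 5 and 6, dominant females 1, 3 and 4 and submissive females 1, 2 and 4. Markers of several kinds of neurons had higher summed levels in the female table, with overlapping ranges. Those of inhibitory interneurons summed to 835.7 to 885.1 CPM in females and 758.1 to 843.5 CPM in males, with 5 of 5 higher and 1 called higher by edgeR. Hippocampal neuron markers summed to 99.4 to 111.4 CPM against 85.4 to 103.2 CPM, with 4 of 5 higher and 1 called higher, and striatal ones to 314.7 to 373.2 CPM against 267.9 to 339.9 CPM, with 3 of 5 higher and 2 called higher. Cortical excitatory markers summed to 637.3 to 762.5 CPM against 569.6 to 728.6 CPM, with 5 of 6 higher, 1 called higher and 1 lower. None of these markers was at 0 throughout either table, and their part in the Vgf values was not tested. Other neuron lists were mixed. Cholinergic neuron markers summed to 26.4 to 36.0 CPM in females and 30.1 to 45.6 CPM in males, with 1 of 5 higher and 1 called lower. Hypothalamic peptide neuron markers were higher in 2 of 5, with 0 called. Purkinje cell markers were higher in 4 of 5 and cerebellar granule cell markers in 5 of 5, each with 1 called higher. The longest transcript of Vgf had a GC content of 64.1%, the highest of the 7 genes.

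The other three members were not called between the tables. Bdnf was at 44.5 ± 4.40 CPM in females and 41.4 ± 2.82 CPM in males, a log2 difference of 0.11 ± 0.05 (adjusted p = 0.0919, edgeR). It passed the threshold after the exon length correction (0.19, adjusted p = 0.00161), without dominant female 2 (0.13, adjusted p = 0.0280) and against male cages 5 to 7 only (0.15, adjusted p = 0.0388). Ngfr was at 2.94 ± 0.354 CPM in females and 3.37 ± 0.420 CPM in males, a log2 difference of -0.20 ± 0.08 (adjusted p = 0.0749). It passed after the GC correction (-0.26, adjusted p = 0.0193) and without dominant male 6, submissive male 3 or dominant female 3 (adjusted p = 0.0391, 0.0431 and 0.0301). Cholinergic neuron markers also had lower summed levels in females, as given beside Vgf, and their part in the Ngfr values was not tested. Ntf3 was at 2.44 ± 0.438 and 2.11 ± 0.374 CPM, a log2 difference of 0.21 ± 0.12 (adjusted p = 0.175).

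**Figure D3:**
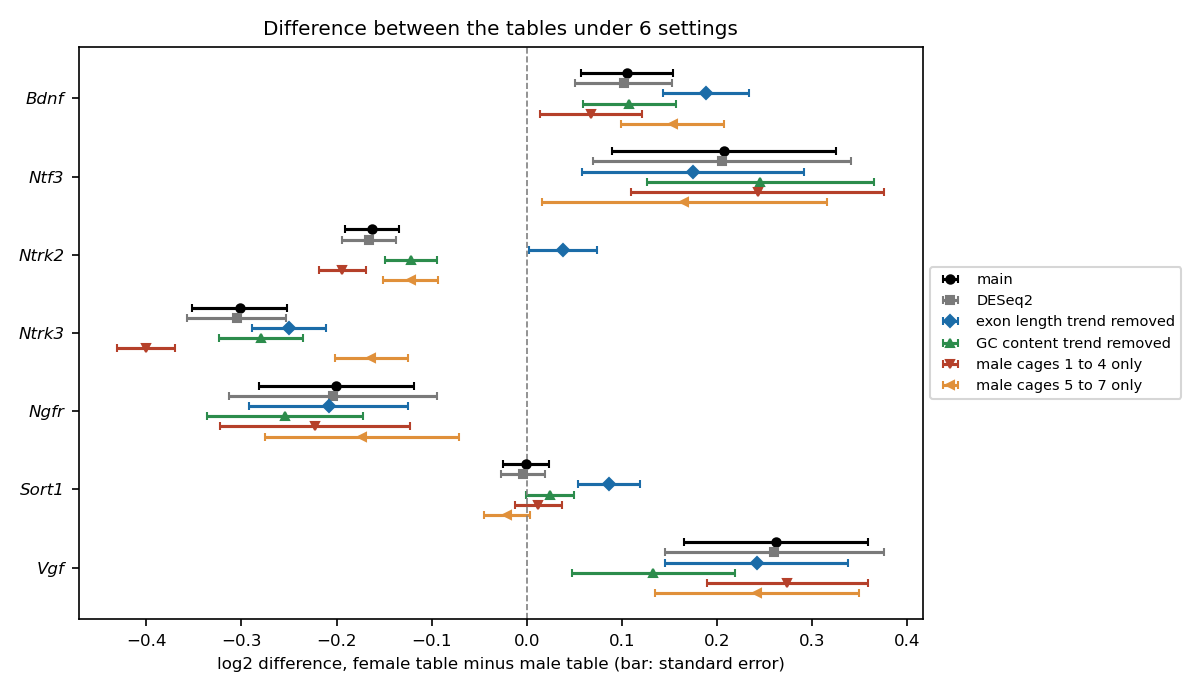
Log2 difference between the female and the male table (horizontal axis, with standard errors as bars) for each of the 7 genes under 6 settings, shown by symbol and colour. Ntrk3 lies below 0 in all of them, Ntrk2 moves from -0.16 to 0.038 when the exon length trend is taken out, and Vgf is at 0.13 when the GC trend is taken out.

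Of the pathway lists, 35 of 77 genes were called between the tables, 19 higher and 16 lower in females, where 36.2% of all genes were called, 18.4% higher and 17.8% lower, and the counts of the single lists stand against the same shares. The 77 genes had a median log2 difference of 0.031, against -0.0001 over all genes. Relatives of sortilin were lower in 4 of 4 genes, all called under each of the 7 alternatives. Among them Sorcs2, a receptor for proneurotrophins, was at -0.70 ± 0.05 (adjusted p = 3.56e-11, edgeR). Of granins and dense-core proteins 5 of 8 were called, 4 higher and 1 lower, and 4 to 6 under the alternatives. Chgb and Scg3, granins of the vesicles that also hold Vgf, were higher, at 0.36 ± 0.03 and 0.43 ± 0.04. Cadps, which primes these vesicles for release, was lower, at -0.24 ± 0.02.

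Of 18 Trk adaptors 9 were called, 4 higher and 5 lower, among them Sirpa at 0.28 ± 0.03 and Frs2, which couples Trk receptors to the MAP kinase pathway, at -0.37 ± 0.05. With the exon length correction 5 were called higher and 2 lower, where 34.9% of all genes were called, 19.2% higher and 15.8% lower. Of p75 partners 6 of 8 were called, 4 higher and 2 lower, and of transcription factors of Bdnf 7 of 12, 4 higher and 3 lower. Processing enzymes had 2 of 8 called, 1 in each direction. Only 2 of 17 genes that respond to activity were called, both higher, and 10 of 17 against male cages 5 to 7 only, 9 higher and 1 lower. In that comparison 27.4% of 15189 genes were called, 14.6% higher and 12.8% lower. The sets of male cages lay on both sides of the females in Arc, Fos and Nr4a1. Females had means of 86.1, 15.1 and 23.0 CPM. Male cages 1 to 4 had 101, 17.8 and 24.3 CPM and male cages 5 to 7 had 52.2, 8.89 and 12.9 CPM. Markers of oligodendrocyte precursors moved with the tables, as given beside the cage values of Ntrk3.

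The last comparison was between cages, over the libraries of one table. In males 1 of the 7 genes was called, Ntrk3, where 5.89% of 14737 genes were called. At an unadjusted p under 0.05 there were 2 of the 7, against 22.3% of all genes. In females 0 of 7 were called by edgeR or DESeq2, against 0.074% of 14865 genes, and 1 of 7 had an unadjusted p under 0.05, against 5.11%.

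Ntrk3 fell into 2 sets of male cages. In cages 1, 2, 3 and 4 the dominant mice had 145.5, 155.8, 148.2 and 145.6 CPM and the submissive mice 158.5, 157.7, 147.4 and 156.2 CPM. In cages 5, 6 and 7 the dominant mice had 131.2, 115.3 and 134.6 CPM and the submissive mice 123.1, 131.9 and 136.5 CPM. All 8 libraries of the first set lay above all 6 of the second, which was the case, in either direction, for 8.74% of 14737 genes. The cages differed with an F of 8.42 (adjusted p = 0.0219, edgeR), and the call was lost after the exon length correction (adjusted p = 0.1095) or the GC correction (0.0513) and without replicate 2 (0.0566) or replicate 6 (0.0783). Over all alternatives the adjusted p was between 0.000492 and 0.1095.

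Markers of oligodendrocyte precursors (Pdgfra, Cspg4 and Gpr17) moved the same way as Ntrk3. Their summed level was 167.4 to 185.2 CPM in male cages 1 to 4, 150.3 to 164.4 CPM in male cages 5 to 7 and 127.2 to 146.9 CPM in females. Of the 3 markers 2 were called between male cages and 3 were called lower in females, 2 after the exon length correction and 2 against male cages 5 to 7 only. None was at 0, and their part in the Ntrk3 values was not tested. Neuron lists did not all follow. Median summed levels in male cages 1 to 4 and 5 to 7 were 596.5 and 700.4 CPM for cortical excitatory markers. They were 89.25 and 100.5 CPM for hippocampal and 303.3 and 331.6 CPM for striatal markers. Cholinergic and cerebellar granule cell markers went the way of Ntrk3, from 38.14 to 33.03 CPM and from 450.6 to 382.2 CPM. The ranges overlapped, and the part of these lists was not tested either.

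Ntrk2 had an F of 2.92 between male cages (unadjusted p = 0.0480, adjusted p = 0.220, edgeR). Its cage means ran from 665.3 CPM in cage 6 to 752.7 CPM in cage 2, the same lowest and highest cages as for Ntrk3 (123.6 and 156.7 CPM). After the exon length correction Ntrk2 and Sort1 were called between male cages (adjusted p = 0.0400 and 0.0372) and Ntrk3 was not.

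Bdnf had the largest F between cages among the members in females. Cages 1 and 3 had means of 47.5 and 48.2 CPM and cages 2 and 4 means of 40.4 and 42.1 CPM. The cages were set in this order by their values. The F was 5.30 (unadjusted p = 0.00797, adjusted p = 0.774, edgeR), and the adjusted p was between 0.188 and 1.00 over the alternatives. In males the cage means of Bdnf ran from 38.2 to 44.1 CPM, with an adjusted p of 0.646.

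**Figure D4:**
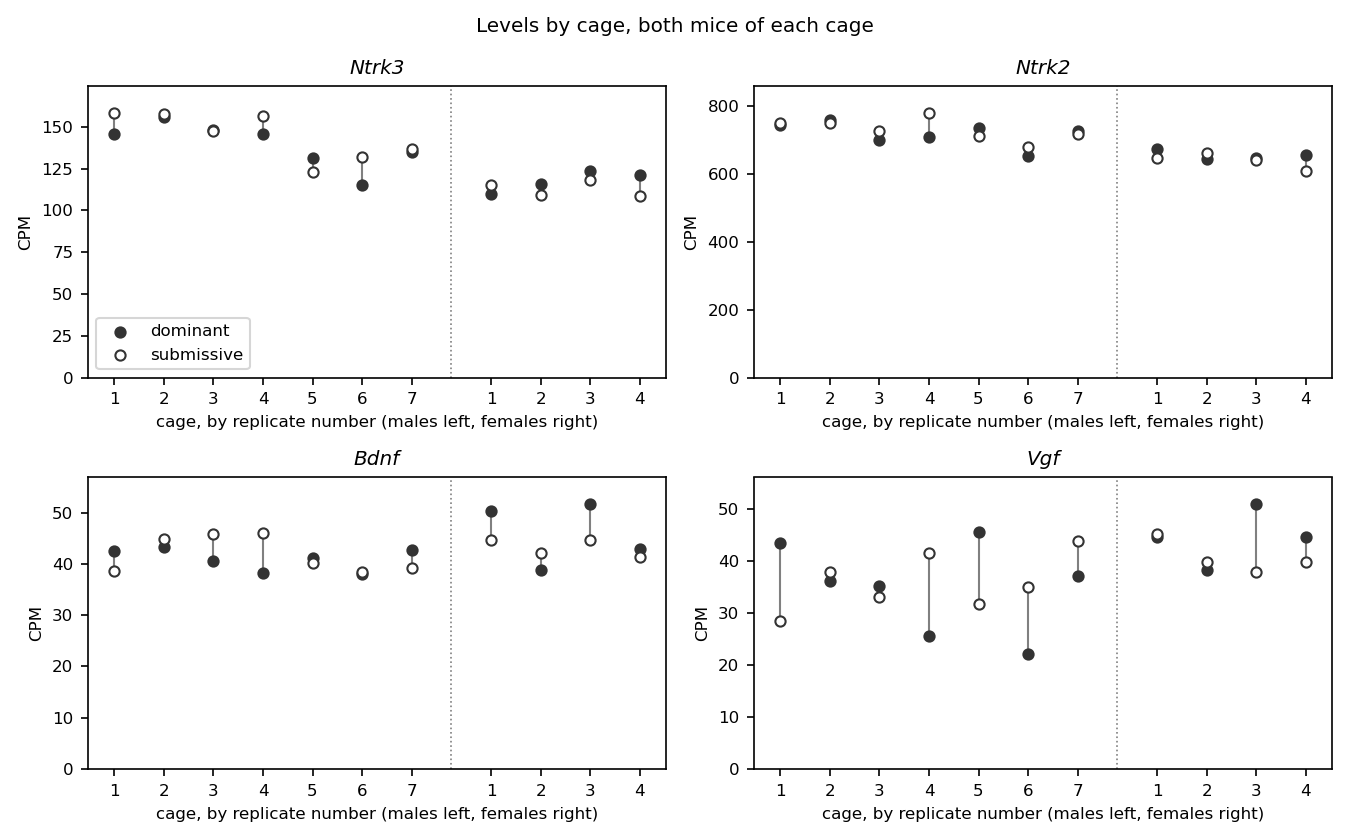
Levels of Ntrk3, Ntrk2, Bdnf and Vgf in CPM (vertical axis, from 0) by cage (horizontal axis), with the dominant mouse as a filled and the submissive mouse as an open circle joined by a line. Ntrk3 is at 145.5 CPM or more in cages 1 to 4 and at 136.5 CPM or less in cages 5 to 7, and the lines of Vgf point in both directions in males.

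Activity genes include several that are known to rise with Bdnf. In males 6 of 17 were called between cages, where 5.89% of all genes were called, and in females 3 of 17, where 0.074% were. Of these, Arc, Fos and Nr4a1 were called in both. In females all 3 calls were lost without cage 3 (adjusted p = 0.871, 1.00 and 0.182, edgeR), and that of Nr4a1 also with DESeq2 (0.234), which called 2 of 17, against 0.0252% of all genes. Without the filter 8 of 17 were called in each sex, against 5.9% of all genes in males and 0.499% in females. The others called in males were Egr1, Egr2 and Spry4, a feedback inhibitor of receptor tyrosine kinases. Mean Arc levels were 92.9, 110.0, 125.6 and 74.2 CPM in male cages 1 to 4 and 52.8, 52.8 and 51.0 CPM in cages 5 to 7. In females Arc was at 64.7, 66.2, 134.8 and 78.8 CPM in cages 1, 2, 3 and 4. The highest cage was 2.46 times the lowest in males and 2.08 times in females, by edgeR with adjusted p = 0.00158 and 0.000129. For Bdnf the same ratios were 1.153 and 1.192. Fos, the transcription factor c-Fos, had ratios of 2.87 and 2.23, and Nr4a1, a nuclear receptor of the immediate early class, 2.33 and 2.14. These 3 genes were chosen because they were called, 11 of 17 in males and 14 of 17 in females were not, and Homer1, also on the list, had ratios of 1.189 and 1.219, near those of Bdnf. In females the cage with the highest Arc, Fos and Nr4a1, cage 3, was also that with the highest Bdnf, while cage 1 combined the lowest Arc and Fos with the second highest Bdnf.

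Among the 21 pairs of members, 1 was correlated in males after adjustment over the pairs of both sexes together. Ntrk2 and Ntrk3 had a Pearson r of 0.772 over 14 males (permutation p = 0.00108, adjusted p = 0.0454) and a Spearman rho of 0.684 (permutation p = 0.00841, adjusted p = 0.177). Pearson r was 0.586 without the 2 libraries farthest from the median of Ntrk2, 0.717 within cages 1 to 4 and 0.692 within cages 5 to 7. In each pair below the farthest libraries were chosen by the gene named first, and by Ntf3 in its pairs. Extreme values of the other gene could therefore stay in. With DESeq2's size factors its r was 0.769 (permutation p = 0.00125, adjusted p = 0.0525), and for differences within the 11 cages 0.550 (permutation p = 0.0771, adjusted p = 0.306), so that 0 pairs passed in either. In the 8 females its r was 0.0902 (exact permutation p = 0.852, adjusted p = 0.927), its rho 0.0476 (exact permutation p = 0.935, adjusted p = 0.935), and r was -0.421 without the 2 farthest libraries. For Bdnf and its receptor Ntrk2 r was 0.702 in males (permutation p = 0.00449, adjusted p = 0.0943), rho was 0.719 (permutation p = 0.00489, adjusted p = 0.177), and r was 0.681 without the 2 farthest libraries. It was 0.541 within cages 1 to 4 and 0.831 within cages 5 to 7. For Bdnf and Vgf r was 0.522 (permutation p = 0.0548, adjusted p = 0.234) and rho 0.538 (permutation p = 0.0496, adjusted p = 0.297) in males, with r at 0.593 without the 2 farthest libraries and at 0.730 and 0.528 within the sets of cages. Ntf3 had negative values with all 6 other members in males, none of which passed the adjustment. In the 8 females r for Ntf3 was positive with Ntrk2 (0.492), Vgf (0.545), Sort1 (0.229), Bdnf (0.602) and Ngfr (0.294) and negative with Ntrk3 (-0.333), with exact permutation p of 0.13 or more, and the difference between the sexes was not tested. With Ntrk2 its r was -0.660 (permutation p = 0.00944, adjusted p = 0.132), its rho -0.622 (permutation p = 0.0202, adjusted p = 0.217), and r was -0.753 without the 2 farthest libraries and -0.622 and -0.782 within the sets of cages. With Vgf r was -0.631 (permutation p = 0.0159, adjusted p = 0.151), rho -0.604 (permutation p = 0.0258, adjusted p = 0.217), and r -0.625 without the 2 farthest libraries and -0.272 and -0.903 within the sets of cages. With Sort1 r was -0.601 (permutation p = 0.0252, adjusted p = 0.151), rho -0.613 (permutation p = 0.0226, adjusted p = 0.217), and r -0.606 without the 2 farthest libraries and -0.656 and -0.750 within the sets of cages. For Ntrk2 and Vgf r was 0.571 (permutation p = 0.0340, adjusted p = 0.178), rho 0.464 (permutation p = 0.0988, adjusted p = 0.371), and r 0.190 without the 2 farthest libraries and 0.513 and 0.852 within the sets of cages. In 8 females 0 of 21 pairs passed. The largest r was that of Sort1 and Vgf, 0.792 (exact permutation p = 0.0206, adjusted p = 0.151), with a rho of 0.690 (exact permutation p = 0.0694, adjusted p = 0.363) and an r of 0.528 without the 2 farthest libraries. For Bdnf and Vgf r was 0.771 (exact permutation p = 0.0236, adjusted p = 0.151), rho was 0.738 (exact permutation p = 0.0458, adjusted p = 0.297), and r was 0.430 over the 6 libraries left without the 2 farthest, a drop that was not tested. Cage mates are included in these sets, so the libraries are not fully independent.

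The genes most like each member were taken from 14669 genes by Pearson r of log2 CPM over 22 libraries after subtracting the mean of each table, as a description. For Bdnf they were Homer1 (r = 0.784), Slc7a11 (0.778) and Sgsm1 (0.753), and for Ntf3 they were Ccdc132 (0.828), Rabep1 (0.761) and C1d (0.747). Homer1, whose product is a scaffold of glutamate synapses, had 0.621 with Bdnf in males and 0.905 in females. Ntrk2 was closest to Ddx6 (0.880), Ids (0.877) and Epha5 (0.875) and Ntrk3 to Igsf9b (0.945), Ep400 (0.942) and Pcbp2 (0.936). Ngfr had the weakest neighbours, AI854703 (0.705), Rbfa (0.697) and Nt5c3b (0.689). Sort1 was closest to Plcb1 (0.870), Prkcb (0.817) and Gcnt4 (0.816). Vgf was closest to Adgrl1 (0.931), Plec (0.928) and Adgrb2 (0.917). Some of these values differed between males and females. They were 0.970 and 0.603 for Vgf with Plec, 0.981 and 0.630 for Ntrk3 with Pcbp2, and 0.820 and 0.438 for Ngfr with AI854703. Others were alike, such as Ntrk2 with Ids at 0.876 and 0.882. The libraries share cages, depth and base composition within these sets.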

How the data were processed

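Total RNA of 22 right brain hemispheres was sequenced with stranded, ribosome-depleted libraries (85 nt single-end). The authors trimmed reads with cutadapt 1.15 and bbduk, checked them with FastQC 0.11.8, aligned them with STAR 2.6.0a to mm10, and deposited raw counts per gene from featureCounts 1.6.2. The treatment of reads with several map positions is not given in the sources used here. Symbols were matched to GENCODE, and 95.6% of genes had a GC content. The tables also hold 27 genes named by dates.

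From the deposited counts, CPM and log2 CPM (prior count 2) were computed with edgeR 4.0.16 (R 4.3.3, limma 3.58.1, TMM). Tests were edgeR's quasi-likelihood tests over all genes kept by its filter (minimum count 10, minimum total 15) with Benjamini-Hochberg adjustment at 0.05, for rank in each sex, rank by table, female against male table, rank within cages and cage. Single values were tested by exact permutation, and correlations by 100000 permutations in males and exactly in females. Alternatives were DESeq2 1.42.0, its size factors, no filter, correction of each library's loess trend (span 0.3) on exon length or on GC content, the replicate block, each library left out, and male cages 1 to 4 or 5 to 7 alone, the last added after seeing the data. Fits were tested on simulated data.

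The members, lists and tests were chosen with earlier results of these data known. Named genes are the 7 members, up to 3 called genes in each direction of the pathway lists (else the smallest p in each direction) and the 3 genes most like each member. Egr1, Egr2, Spry4, Pcsk1n and the markers beside a result were named after their values were seen. Some listed genes that the rule would name are not reported here.

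Replicate numbers pair the libraries, since the library names give a shared cage and cage mates were sacrificed together. Deviations of cage mates from their group means correlated at 0.177 on average in males, against -0.0294 for other pairs, and at 0.0239 against -0.00797 in females. The 54 pairs within groups differed by more than sampling noise (mean chi-square per gene 1.81 to 16.6). A count of 0 allows up to 3 counts. Depth, 12403943 to 16488762 counted reads, gives a counting error of 0.988% for Ntrk2 and 17.4% for Ntf3.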

Additional observations from a re-analysis of the deposited data

How the results depend on the processing

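Ranks differed in 0 of the 7 genes under every alternative run, and the replicate block, which pairs cage mates, changed no call of a member. With the block 36 genes were called between ranks in females in place of 14, and 8 with exon length and 46 with GC content added. There DESeq2 called 78, no filter 84, the exon length correction 0, the GC correction 25, and fits without one library 0 to 77. Between male cages the exon length correction gave 547 genes in place of 868 and fits without one replicate 375 to 1841. The members called there were 2 after the exon length correction, 0 after the GC correction and 0 to 1 without one replicate. Between female cages DESeq2 called 5 genes in place of 11, no filter 99 and fits without one replicate 2 to 31. Of the correlations in males 0 passed with DESeq2's size factors or within cages.

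The exon length correction, without and with the block, turned the log2 difference between ranks of Ntrk2 in males (0.021 and 0.018) and females (-0.047 and -0.047), of Sort1 in males (0.0086 and 0.0081), and the interactions of Ntf3 (0.0091 and 0.0030) and Ntrk2 (-0.069 and -0.067). Between tables it turned Ntrk2 (0.038). Sort1 was there at 0.0018 without a filter, 0.087 after the exon length correction, 0.025 after the GC correction and 0.012 against male cages 1 to 4 only. Without one library the differences crossed 0 for Ntf3 between ranks in males (-0.019 to 0.12) and females (-0.072 to 0.13) and in the interaction (-0.13 to 0.079), for Vgf in males (-0.11 to 0.050) and for Sort1 between tables (-0.017 to 0.0027). Within 11 cages the differences crossed 0 without one replicate, that is both mice of a cage, for Bdnf (-0.0088 to 0.039), Ntrk2 (-0.015 to 0.0098), Ntrk3 (-0.029 to 0.0059), Ngfr (-0.020 to 0.076) and Vgf (-0.032 to 0.083). The cause was not tested. Depth limits Ntf3 and Ngfr, whose spread was close to counting error.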
